A study of Arabidopsis thaliana with 9 samples.

Results

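Wild-type Arabidopsis thaliana seedlings treated with jasmonate were compared with mock-treated seedlings of the same genotype. The comparison took the 3 libraries labelled JA WT and the 3 labelled mock WT, chosen by genotype and treatment out of 9 libraries in all. It is described over the 20986 genes that passed a filter on low counts, out of 33602 in the table. Both groups were Col-0 seedlings 6 days old, grown in liquid medium with sucrose. JA WT seedlings received 5 µM jasmonate for 3 h, and mock WT seedlings received ethanol diluted 5000-fold. The other 3 libraries, lhp1 seedlings given the mock solution (mock lhp1), helped to estimate the spread between replicates. Each library is polyadenylated RNA of whole seedlings, so a value averages over shoot and root.

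Jasmonates are lipid-derived hormones that plants make on wounding and insect attack. The receptor COI1 binds the jasmonoyl-isoleucine conjugate together with JAZ repressors, which are then degraded, and this frees MYC and other transcription factors. The response is known for raising chemical defences, such as glucosinolates, terpenes and defence proteins, and for restraining growth.

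Mock WT replicate 2 stood apart from its group, and counts of calls in a gene list are also given without it wherever they differ. On the first principal component of log2 CPM (counts adjusted for depth with TMM factors; 60.6% of the variance) the JA WT libraries lay between −60.7 and −57.9. Mock WT replicates 1, 2 and 3 lay at −9.44, 29.2 and −11.7, and the mock lhp1 libraries at 55.3 to 58.1. Totals were 22360776 to 31454984 counts in JA WT and 24906304 to 26851011 in mock WT. The 7 floral organ genes of the marker list summed to 22.5 to 27.3 CPM in JA WT, against 29.8, 131 and 28.4 CPM in mock WT replicates 1 to 3. Of these AG was called lower in JA WT, but not when any 1 of the JA WT libraries was left out. Markers of shoot mesophyll (6 tested), root (8), root hair (5), guard cell lineage (6), trichome (2) and phloem and xylem (5) gave no call in either direction with edgeR, DESeq2 or limma-voom. At an unadjusted edgeR p under 0.05 there was 1 root marker and 1 phloem and xylem marker, and 1 root marker was called lower under total-count scaling. The mesophyll markers summed to 35905 to 37617 CPM in JA WT and 27046 to 41646 CPM in mock WT. The root markers summed to 138 to 148 CPM in JA WT and 140.2 to 184 CPM in mock WT.

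Jasmonate changed 3292 of the genes tested, or 15.7% (quasi-likelihood test of edgeR, adjusted after Benjamini and Hochberg). In JA WT 1809 genes (8.62%) were higher and 1483 (7.07%) were lower than in mock WT. Without mock WT replicate 2, 1742 were higher (8.25%) and 1328 lower (6.29%) of 21111 tested. Of the calls, 1532 higher and 1127 lower were shared by both fits, and no gene was called in opposite directions. Values of the groups did not overlap for 6310 genes, 30.1% of those tested. When libraries were scaled to total counts, the median log2 fold change of all genes moved to −0.12 and the calls to 1217 higher and 3034 lower, so 28.6% of calls were rises, against 55.0% in the main scaling.

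In the main scaling large rises outnumbered large falls, while the median sizes of rises and falls were close. With total-count scaling the median log2 fold change of all genes was −0.12, so this balance depends on the scaling. The median log2 fold change, given as JA WT over mock WT throughout, was 0.71 among genes called higher and −0.67 among genes called lower. Rises of at least 2-fold numbered 646 (3.08% of genes tested) and falls of that size 415 (1.98%). Rises of at least 4-fold numbered 268 and such falls 83, or 300 and 64 without mock WT replicate 2. At the other end, 771 rises and 618 falls were smaller than 1.5-fold. Genes called higher took 17.9%, 17.6% and 17% of all counts in the JA WT libraries, against 10.7%, 11.8% and 11% in the mock WT libraries. Genes called lower took 3.48% to 3.67% in JA WT and 5.4% to 6.14% in mock WT. These shares follow from the calls and are a description.

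**Figure D1:**
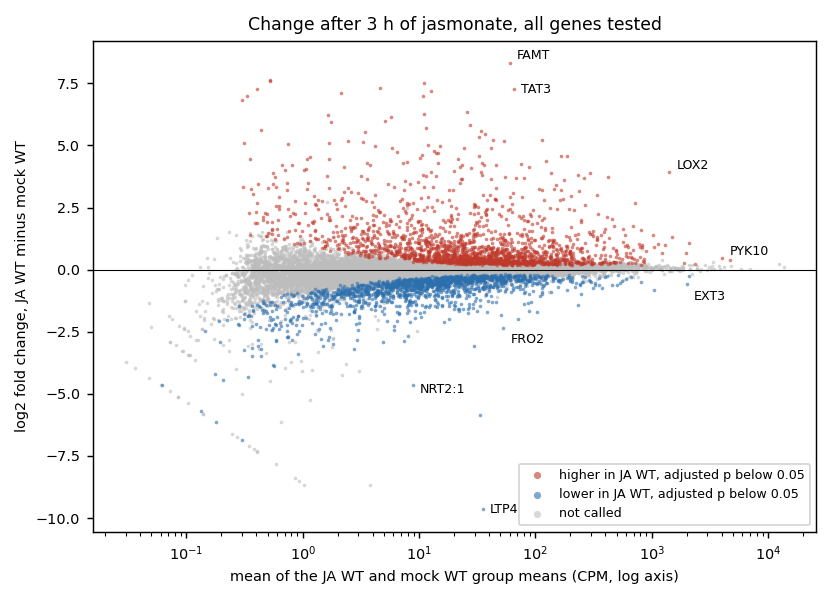
Log2 fold change of JA WT over mock WT (vertical axis) against mean CPM (horizontal axis, log scale), 1 point per gene tested. Coloured points are the 1809 genes higher and the 1483 lower in JA WT, grey points were not called, and FAMT, at 8.32, has the largest rise among the named genes.

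The largest rises were of genes nearly silent in mock seedlings. FAMT (AT3G44860), a farnesoic acid methyltransferase gene, had 165, 91.2 and 103 CPM in JA WT, against 0.0837, 0.0361 and 0.98 CPM in mock WT. Its neighbour AT3G44870, of the same SABATH family, had 18.5, 24.9 and 22.7 CPM in JA WT, against 0.0837, 0.181 and 0.0754 CPM in mock WT. The log2 fold changes were 8.32 ± 0.47 for FAMT and 7.52 ± 0.26 for AT3G44870, with edgeR adjusted p = 3.28e-07 and 1.30e-08; the value after ± is an approximate standard error here and below. AT3G44870 overlaps the chlorophyll breakdown gene ACD1, so its counts are uncertain to that extent. TAT3, a tyrosine aminotransferase gene, had 141, 133 and 113 CPM in JA WT, against 0.167, 0.939 and 1.32 CPM in mock WT (7.27 ± 0.29). In all 3 genes every JA WT library lay above every mock WT library, as the rule for the named genes requires.

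Defence proteins and jasmonate turnover were both among the 15 largest rises. AT1G73325, a Kunitz protease inhibitor gene, had 12.3, 9.02 and 6.09 CPM in JA WT, against 0.126, 0 and 0.0377 CPM in mock WT (7.33 ± 0.49, and 6.75 without mock WT replicate 2). JRG21 and AT2G38240, which encode oxygenases of the group that hydroxylates jasmonic acid, rose by 7.19 ± 0.29 and 6.97 ± 0.27; AT2G38240 rose by 7.99 without mock WT replicate 2, which held most of its few mock counts. VSP2, a vegetative storage protein gene and a standard jasmonate marker, had 59.6, 47.6 and 53.2 CPM in JA WT, against 0.502, 1.99 and 0.264 CPM in mock WT (5.82 ± 0.38, and 7.13 without mock WT replicate 2). Mock WT replicate 2 was the mock library with most VSP2. NATA1, whose product acetylates ornithine, had 26.1, 24.8 and 16.1 CPM in JA WT, against 0, 0.361 and 0.867 CPM in mock WT (5.71 ± 0.47). DIR5, a dirigent-like gene, had 66.6, 70.7 and 79 CPM in JA WT, against 0.419, 3.11 and 1.28 CPM in mock WT (5.45 ± 0.34, and 6.37 without mock WT replicate 2).

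Genes of mixed function made up the rest of the 15. They were AT5G04120 (phosphoglycerate mutase family, 6.34 ± 0.24), AT1G14250 (nucleoside phosphatase family, 6.26 ± 0.41), MSRB8 (methionine sulfoxide reductase, 6.15 ± 0.33), BGLU24 (beta-glucosidase, 5.6 ± 0.17), AT1G32970 (subtilisin-like protease, 5.53 ± 0.41) and AT3G22250 (glycosyltransferase family). AT3G22250 had 8.87, 10.3 and 11 CPM in JA WT, against 0, 0.433 and 0 CPM in mock WT (6 ± 0.54). All of its mock WT counts were in mock WT replicate 2, so no fold is given without that library. Without it the log2 fold change of AT1G32970 was 6.69, that of AT5G04120 7.06 and that of AT1G14250 6.89. MSRB8 and AT1G32970 each have a copy at least 90% identical over an aligned stretch, and AT5G04120 and AT1G32970 overlap another gene, so their counts are uncertain.

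**Figure D2:**
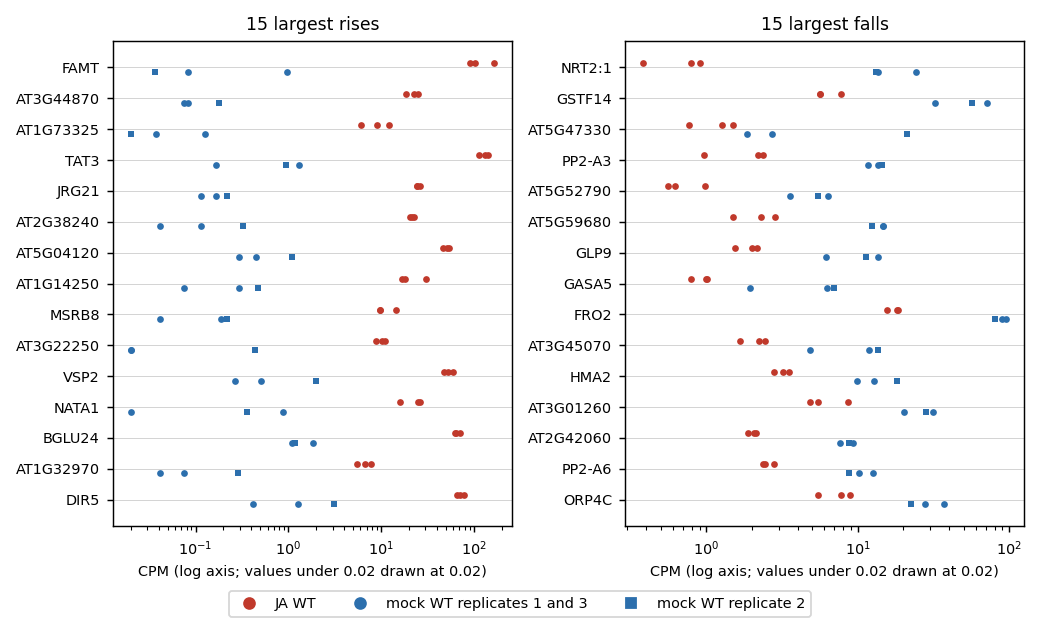
CPM in each library (log axis) of the 15 genes with the largest rises and the 15 with the largest falls. Colours separate the JA WT from the mock WT libraries, and mock WT replicate 2 has its own symbol; no gene's groups overlap, and mock WT replicate 2 lies far above the other mock libraries for AT5G47330 (21.2 CPM).

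Letters that jasmonate-related factors bind were counted in the 250 bases upstream of each gene, on both strands (RefSeq TAIR10.1). MYC factors bind CACGTG, the G-box, which other bHLH and bZIP factors bind too, and its variant CACATG. Among genes higher in JA WT, 13% held CACGTG in the window, as did 15.2% of those at least 2-fold higher and 16% of those at least 4-fold higher, against 7.15% of all genes tested and 4.99% of the lower genes. CACATG was in 16.5% of the higher genes and 22% of those at least 4-fold higher, against 11.2% of all and 12.3% of the lower genes. GCCGCC, bound by ERF factors, was in 2.82% of the higher genes, 1.96% of all and 0.472% of the lower genes. AAAATATCT, the evening element of clock-regulated genes, was in 2.82% of the higher, 2.4% of all and 2.77% of the lower genes. CACGTG reads the same on both strands, and none of these shares was tested.

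At the top of the ranking CACGTG was in 1 of the 15 largest rises and in 0 of the 15 largest falls. Over all genes tested 7.15% held it. Of the 268 genes at least 4-fold higher 43 held it, and 4 held it at least 2 times: AT3G28220, UF3GT, AT4G02360 and MC7. At least 2 matches were in 205 of the 20852 promoters of all genes tested. In MC7 and AT4G02360, 72 and 229 bases of the window lie in another annotated gene, so they are not shown. The promoters below are those of the other pair, of AT5G04120 (the 1 of the 15), of the triterpene synthase genes THAS1 and MRN1, which rose without CACGTG, and of NRT2.1 (NRT2:1 in the annotation), the largest fall. Each reads 5′ to 3′ on the gene's strand and ends at the base before the annotated start; capitals mark CACGTG or CACATG on either strand.
AT3G28220 (chr3:10523931-10524180, + strand): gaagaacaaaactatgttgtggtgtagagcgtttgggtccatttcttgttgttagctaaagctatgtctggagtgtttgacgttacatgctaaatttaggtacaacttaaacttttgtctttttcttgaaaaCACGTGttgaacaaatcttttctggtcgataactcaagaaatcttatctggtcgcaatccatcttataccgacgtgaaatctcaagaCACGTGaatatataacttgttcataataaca
UF3GT (chr5:21938397-21938646, - strand): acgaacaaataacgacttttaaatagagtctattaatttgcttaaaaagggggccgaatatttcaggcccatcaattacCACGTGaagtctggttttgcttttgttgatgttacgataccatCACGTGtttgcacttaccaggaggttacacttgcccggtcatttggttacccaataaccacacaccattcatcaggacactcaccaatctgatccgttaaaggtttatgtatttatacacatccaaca
AT5G04120 (chr5:1119687-1119936, + strand): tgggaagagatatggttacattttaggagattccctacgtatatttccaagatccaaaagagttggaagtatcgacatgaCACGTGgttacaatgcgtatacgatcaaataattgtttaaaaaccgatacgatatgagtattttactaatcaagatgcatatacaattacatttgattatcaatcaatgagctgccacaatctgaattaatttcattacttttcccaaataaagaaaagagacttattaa
THAS1 (chr5:19456587-19456836, + strand): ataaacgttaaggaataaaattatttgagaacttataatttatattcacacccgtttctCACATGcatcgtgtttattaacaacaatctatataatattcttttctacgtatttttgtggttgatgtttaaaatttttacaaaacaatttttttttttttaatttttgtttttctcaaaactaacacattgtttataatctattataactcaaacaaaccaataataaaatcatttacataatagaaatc
MRN1 (chr5:17053203-17053452, + strand): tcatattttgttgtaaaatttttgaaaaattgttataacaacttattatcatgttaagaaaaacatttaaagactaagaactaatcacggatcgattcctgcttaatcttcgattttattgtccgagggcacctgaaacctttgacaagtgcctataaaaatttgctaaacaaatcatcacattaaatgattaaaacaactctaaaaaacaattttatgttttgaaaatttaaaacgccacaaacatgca
NRT2.1 (chr1:2523773-2524022, + strand): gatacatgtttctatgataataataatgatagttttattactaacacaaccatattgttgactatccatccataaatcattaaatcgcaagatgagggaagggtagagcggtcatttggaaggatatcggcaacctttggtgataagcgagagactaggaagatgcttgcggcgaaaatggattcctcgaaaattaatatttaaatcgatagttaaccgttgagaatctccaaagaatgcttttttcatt

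In AT3G28220, a TRAF-like family gene, CACGTG starts at −118 and −31 from the annotated start, and the level was 41.2 ± 9.03 CPM in JA WT, against 1.89 ± 0.108 CPM in mock WT (mean ± SD, n = 3 each; log2 fold change 4.45 ± 0.17). In UF3GT, an anthocyanin glycosyltransferase gene, it starts at −171 and −128, and the level was 5.82 ± 1.48 CPM in JA WT, against 0.8 ± 0.335 CPM in mock WT (mean ± SD, n = 3 each; log2 fold change 2.84 ± 0.29). In AT5G04120 it starts at −170, and the gene had 51.9, 54.2 and 46.8 CPM in JA WT, against 0.293, 1.08 and 0.452 CPM in mock WT. THAS1 holds CACATG at −191, and MRN1 and NRT2.1 hold neither. A match describes letters and is not a site, and no match says only that these letters are not in this window.

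The 15 largest falls were of genes of mixed function, with 3 transport or uptake genes among them. NRT2.1, a high-affinity nitrate transporter gene, had the largest and fell to 0.9, 0.785 and 0.381 CPM in JA WT, against 24.2, 13.2 and 13.6 CPM in mock WT (−4.66 ± 0.32, edgeR adjusted p = 1.86e-06). Its neighbour NRT2.2 is 90.3% identical over an aligned stretch. Lower in the order, FRO2, the ferric chelate reductase gene of root iron uptake, fell to 18.2, 18.5 and 15.5 CPM in JA WT, against 90.1, 80.9 and 95.4 CPM in mock WT (−2.35 ± 0.14). HMA2, a zinc-exporting ATPase gene, fell to 2.79, 3.53 and 3.18 CPM in JA WT, against 9.88, 18.2 and 12.8 CPM in mock WT (−2.11 ± 0.20). For these genes all JA WT libraries lay below all mock WT libraries. In whole seedlings, fewer cells of a type and less RNA per cell cannot be told apart, and the root markers gave no call.

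Glutathione, phloem and signalling genes were among the rest of the 15. GSTF14, a glutathione S-transferase gene with the second largest fall, had 5.66, 7.7 and 5.64 CPM in JA WT, against 32.4, 56.7 and 71.7 CPM in mock WT (−3.09 ± 0.25). PP2-A3 and PP2-A6, phloem protein genes, fell by 2.88 and 2.06 on the log2 scale. AT5G59680, a leucine-rich repeat kinase gene, had 1.5, 2.84 and 2.28 CPM in JA WT, against 14.7, 12.4 and 14.6 CPM in mock WT (−2.66 ± 0.20). GLP9 (germin-like, −2.45 ± 0.27), GASA5 (gibberellin-regulated peptide, −2.44 ± 0.42), AT5G52790 (CBS domain, −2.85 ± 0.27), AT3G45070 (P-loop hydrolase family, −2.28 ± 0.34), AT3G01260 (mutarotase-like, −2.1 ± 0.20), AT2G42060 (C1 domain, −2.08 ± 0.14) and ORP4C (oxysterol-binding, −1.98 ± 0.19) also fell. Of these AT3G45070 has a copy 91.7% identical over an aligned stretch, and AT3G01260, AT2G42060 and ORP4C overlap another gene. AT5G47330, a hydrolase gene, rested on mock WT replicate 2, with 1.5, 1.27 and 0.761 CPM in JA WT, against 2.72, 21.2 and 1.85 CPM in mock WT (−2.91 ± 0.85). Without that library its log2 fold change was −0.98, and the call was lost without any 1 JA WT or any 1 mock lhp1 library.

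The 10 largest gains in CPM, as against fold, were of genes that mock seedlings already expressed. LOX2, the plastid lipoxygenase of jasmonate synthesis, gained most, with 3283, 2549 and 2174 CPM in JA WT, against 75.4, 213 and 238 CPM in mock WT (3.92 ± 0.35). PBP1, the lectin that binds the beta-glucosidase PYK10, had 2865, 2889.9 and 2812 CPM in JA WT, against 1519, 1375 and 1214 CPM in mock WT (1.06 ± 0.08). JAL34, a jacalin-related lectin gene that overlaps another gene, had 1986, 2192 and 2190 CPM in JA WT, against 806, 949 and 801 CPM in mock WT (1.32 ± 0.08). BGLU22, NAI2, NIT1 and NSP1 (beta-glucosidase, ER body component, nitrilase and nitrile specifier protein) gained 1040.3, 936, 865 and 815 CPM, and CWLP, a cell wall linker protein gene that overlaps another gene, gained 896 CPM. BGLU22 and NSP1 have copies 91.9% and 96.5% identical over an aligned stretch. The methionine synthase gene ATMS1 had 5615, 5419 and 4888 CPM in JA WT, against 4302, 3841 and 4103 CPM in mock WT, a small fold on a large base (0.38 ± 0.08). PYK10 had 4679.7, 4762 and 4585 CPM in JA WT, against 3342, 4059.7 and 2858 CPM in mock WT (0.45 ± 0.11), not called without JA WT replicate 1 or without JA WT replicate 2; it overlaps another gene. These 10 genes took 2.23% to 2.43% of all counts in JA WT and 1.28% to 1.43% in mock WT.

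The 10 largest losses in CPM were each smaller than any of those gains and were of genes of mixed function. EXT3, an extensin gene that overlaps another gene, had 1554, 1758 and 1497 CPM in JA WT, against 1982, 2895 and 2286 CPM in mock WT (−0.57 ± 0.14), not called without JA WT replicate 3. HA2, the plasma membrane proton pump also written AHA2, had 757, 781 and 752 CPM in JA WT, against 1539, 1291 and 1182 CPM in mock WT (−0.81 ± 0.09). GSR2, a cytosolic glutamine synthetase gene, lost 276 CPM (−0.5 ± 0.08), and XTH4, a xyloglucan-modifying enzyme gene, lost 197 CPM (−0.63 ± 0.09). The peroxidase gene AT5G64100 had 109.8, 130.1 and 144 CPM in JA WT, against 352, 383 and 287 CPM in mock WT (−1.41 ± 0.12). The dehydrin genes COR47 and AT1G54410 fell by 0.97 and 0.53, the calcium-binding protein gene AT1G62480 by 0.63 and the anchor-like gene AT5G40450, which overlaps another gene, by 0.45. GAPC2, of glycolysis, fell by 0.26, but not past the threshold without JA WT replicate 1 or 3.

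Some genes were at the floor in mock seedlings and clear after jasmonate. At most 3 counts over the mock WT libraries and at least 30 over the JA WT libraries were found for 14 genes. Of these 6 had no mock WT count and 11 were called higher by edgeR, while the rest did not pass the filter. The limits fix the direction, so these calls add no support. AT2G26380, a leucine-rich repeat gene, held 308 counts over JA WT, against 2 over mock WT, which is 166-fold (exact 95% counting interval 45.5 to 1374, and 107-fold without mock WT replicate 2). For scpl30, a serine carboxypeptidase-like gene, the counts were 236 in JA WT, against 3 in mock WT (84.6-fold, 28.6 to 413). For TPS04, the geranyllinalool synthase of a volatile homoterpene, they were 104 in JA WT, against 3 in mock WT (37.3-fold, 12.4 to 184, and 24.1-fold without mock WT replicate 2). MYB113, an anthocyanin regulator, had 27, 26 and 20 counts in JA WT, against none in mock WT, at least 26.2-fold higher when the mock WT group is set to 3 counts in all, or 16.9-fold without mock WT replicate 2. AT1G59950 and the bHLH gene AT1G12540 had 76 and 59 counts in JA WT, against none in mock WT, at least 27.2-fold and 21.2-fold higher, or 17.6-fold and 13.7-fold without mock WT replicate 2. AT1G21528 had 65 counts in JA WT, against 1 in mock WT in replicate 2 (69.9-fold, 12.1 to 2803, and at least 15-fold higher without that library). SESA1, a seed storage albumin, had 48 in JA WT, against 2 in mock WT (25.8-fold, 6.77 to 219, and 16.7-fold without mock WT replicate 2), while the seed marker OLEO1 was at 0 in all 6 libraries. The 6 seed markers summed to 0.761 to 1.23 CPM in JA WT and 0.167 to 0.226 CPM in mock WT, and only SESA1 passed the filter. Intervals and floors cover counting error only.

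Counts in the opposite direction rested on mock WT replicate 2. Of 21 genes with at most 3 JA WT counts and at least 30 mock WT counts, 15 had over 90% of their mock counts in that library, and 1 gene met the limits on mock WT replicates 1 and 3. CYP709B1 had 1 count in JA WT, against 626 in mock WT, all 626 in mock WT replicate 2. GA2OX1, a gibberellin-inactivating oxidase gene, had 0 counts in JA WT, against 6, 12 and 30 in mock WT replicates 1 to 3, so it was at least 14.9-fold lower, or 17.3-fold without mock WT replicate 2.

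Most listed genes of the thalianol, marneral and arabidiol clusters, which make root triterpenes, rose. This list was put together after the values were seen and carries no test of its own. It does not hold every gene of these regions, so its lack of falls is no measure of them. Of 10 members 9 were higher and 0 lower (8.62% and 7.07% of all genes tested), with a median log2 fold change of 2.79, or 3.04 without mock WT replicate 2, against 0.00045 over all genes tested, and none of the 9 calls was lost without any 1 library. THAS1, the thalianol synthase, had 322, 334 and 250 CPM in JA WT, against 27.4, 49.1 and 21 CPM in mock WT (3.21 ± 0.25, edgeR adjusted p = 5.32e-06). In its cluster CYP705A5 had 406, 379.6 and 305 CPM in JA WT, against 82, 85.2 and 38.2 CPM in mock WT (2.41 ± 0.25), CYP708A2 rose by 1.87 ± 0.19 and the acyltransferase gene AT5G47980 by 2.2 ± 0.29. Mock WT replicate 3 was lowest and replicate 2 highest for THAS1, and all mock values stayed below all JA WT values.

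The marneral and arabidiol clusters hold the other members that rose. MRN1, the marneral synthase, had 79.7, 82.5 and 78.5 CPM in JA WT, against 2.22, 4.12 and 1.73 CPM in mock WT (4.88 ± 0.20). Its neighbours CYP71A16 and CYP705A12 rose by 2.57 ± 0.21 and 3.64 ± 0.18. PEN1, the arabidiol synthase, had 108, 128 and 112 CPM in JA WT, against 12.6, 14.7 and 13.1 CPM in mock WT (3.1 ± 0.09), and its neighbour CYP705A1 rose by 3.02 ± 0.13. BARS1, the baruol synthase, had 0.129, 0.196 and 0.208 CPM in JA WT, against 0.335, 0.217 and 0.151 CPM in mock WT and was not called (edgeR adjusted p = 0.694). CYP705A2 and CYP705A3, numbered between PEN1 and BARS1, were not on the list. CYP705A2 was not called (−0.62 ± 0.27). CYP705A3 was called lower (−1.51 ± 0.37), at means of 0.22 CPM in JA WT and 0.64 CPM in mock WT. That call was lost without mock WT replicate 2. Genes that supply and divert squalene, also listed after values were seen, gave fewer calls than the cluster list. Of 13 members 4 were higher and 0 lower (8.62% and 7.07% of all genes tested), with a median of 0.08. Those higher were HMG1 (0.92 ± 0.06) and HMGS (0.73 ± 0.06) of the mevalonate pathway, SQE1 (0.52 ± 0.08) and SQP2 (2.65 ± 0.30). The squalene synthase SQS1 (0.08 ± 0.06), the cycloartenol synthase CAS1 (0.14 ± 0.07) and CYP51G1 (−0.1 ± 0.06) of sterol synthesis were not called.

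**Figure D3:**
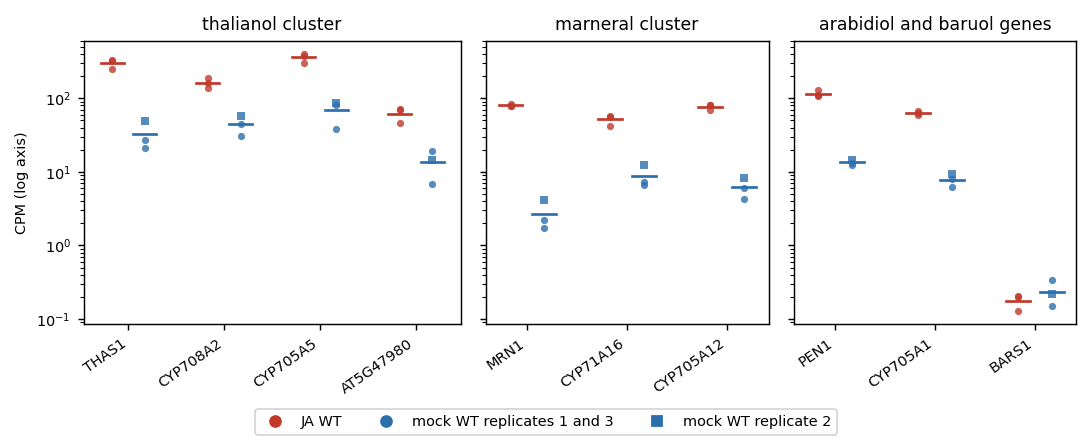
CPM in each library (log axis) of the listed triterpene cluster genes, JA WT and mock WT libraries in separate colours. All 3 JA WT points lie above all 3 mock WT points for every gene except BARS1.

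Some strongly raised genes lay side by side in the genome, those of the triterpene clusters included. Of the 268 genes at least 4-fold higher, 51 (19.0%) had another directly beside them among annotated genes, in 23 runs of at most 3 genes (3 of the runs, with 7 genes, in the triterpene clusters), against 1.82% of all genes tested with such a neighbour. Of the 415 genes at least 2-fold lower, 30 (7.23%) did, in 14 runs, against 2.88% of all genes tested. These runs were not counted again without mock WT replicate 2, on which some of them rested. Without it LTP4 and LTP3 were at 0.44 and −0.63, and AT5G46890 and AT5G46900 at −0.87 and −0.94. Other runs kept their size, as WAKL3 and WAKL4 did (−2.46 and −2.69). Runs were counted after the values were seen, and some hold near-identical copies. Among them were the methionine sulfoxide reductase genes MSRB7 (3.88), MSRB8 (6.15) and MSRB9 (2), and the myrosinase-binding protein genes MBP2 (4.69) and MBP1 (3.23). MSRB7 and MSRB8 are 92.5% identical over an aligned stretch. Both groups were put on a list of 8 after the values were seen, of which 7 were higher and MSRB5 (0.47 ± 0.19) was not called.

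ER bodies are endoplasmic reticulum compartments packed with beta-glucosidases, which with myrosinases and specifier proteins act on glucosinolates after damage. Of 21 members 13 rose and 0 fell, with a median of 1.06, with and without mock WT replicate 2. In this list and those below, counts stand beside 8.62% higher and 7.07% lower of all genes tested. BGLU18 had 700.4, 540.1 and 571 CPM in JA WT, against 96.5, 63.6 and 64.1 CPM in mock WT (3.02 ± 0.17), and NAI1, the bHLH factor that ER bodies depend on, had 62.4, 65.2 and 55.7 CPM in JA WT, against 26.9, 25.4 and 23.3 CPM in mock WT (1.28 ± 0.09). The membrane proteins MEB1 and MEB2 rose by 1.29 ± 0.11 and 1.34 ± 0.10 (MEB1 overlaps another gene), NSP1 by 1.62 ± 0.10, and BGLU22 by 2.67 ± 0.22. The myrosinases themselves were not called: TGG1 had 679, 628 and 702 CPM in JA WT, against 805, 525 and 641 CPM in mock WT (0.03 ± 0.12), TGG2 a log2 fold change of 0.13 ± 0.09, and PEN2, an atypical myrosinase, −0.16 ± 0.10. Of 5 jacalin-related lectins 4 rose and 0 fell (median 0.71), led by JAL23, with 33, 21.7 and 14.8 CPM in JA WT, against 0.502, 1.41 and 0.151 CPM in mock WT (5.04 ± 0.45, and 6.16 without mock WT replicate 2).

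Sulfate assimilation supplies sulfur for glucosinolates and glutathione, and 14 of its 29 genes rose and 1 fell, with a median of 0.51 (16 and 1 without mock WT replicate 2, and 14 and 3 under total-count scaling). APS3, an ATP sulfurylase gene that overlaps another gene, had 94.5, 87.5 and 79.9 CPM in JA WT, against 38.6, 27.1 and 29.8 CPM in mock WT (1.46 ± 0.12), APK2, an adenylylsulfate kinase gene, rose by 1.45 ± 0.11, and SULTR4;1, a vacuolar sulfate exporter gene, by 1.23 ± 0.11. SIR, the sulfite reductase, rose by 0.92 ± 0.06. GSH1, the first enzyme of glutathione synthesis, had 733, 827 and 756 CPM in JA WT, against 324, 379 and 375 CPM in mock WT (1.1 ± 0.08, edgeR adjusted p = 2.61e-06), and GSH2 rose by 0.96 ± 0.06. The member that fell was SULTR3;5, a transporter gene (−0.41 ± 0.09).

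**Figure D4:**
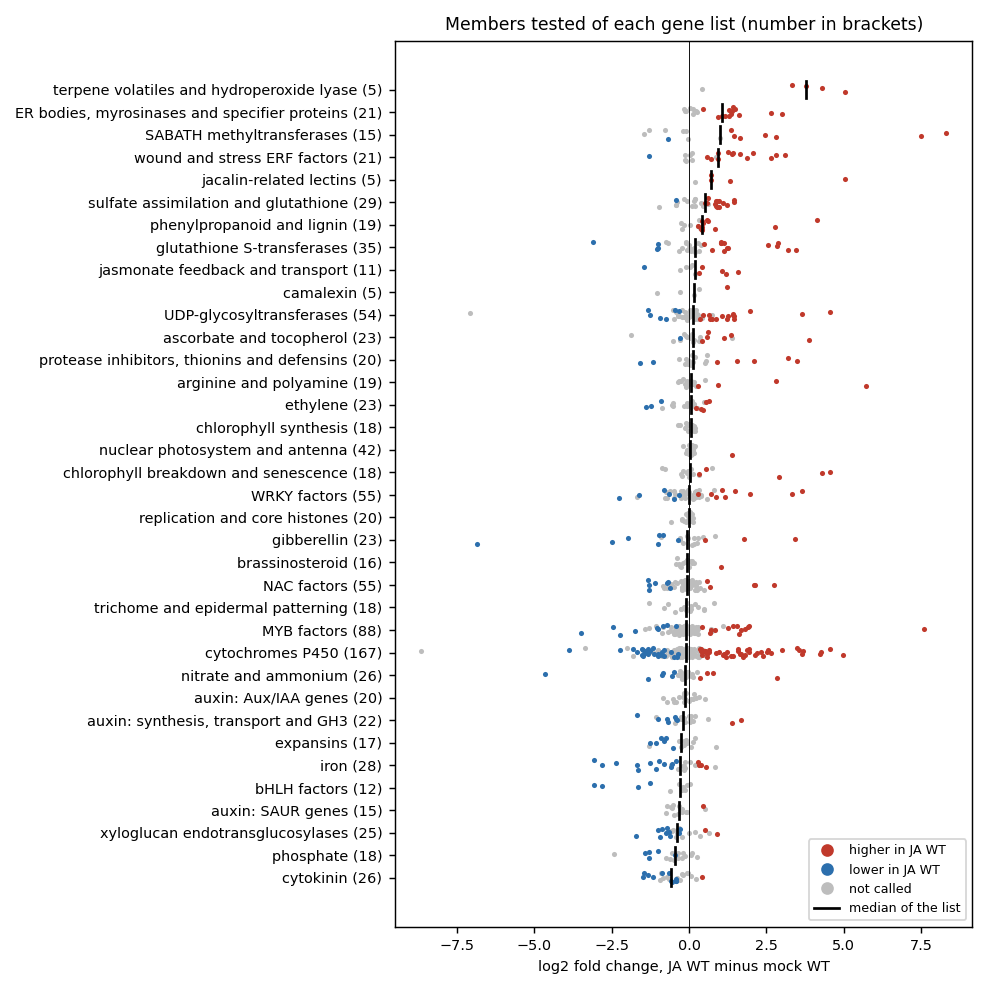
Log2 fold change of JA WT over mock WT for the tested members of the gene lists, 1 point per gene, with the median of each list. The medians of the ER body (1.06) and sulfate (0.51) lists lie above 0 and those of the cytokinin (−0.58) and xyloglucan endotransglucosylase (−0.39) lists below it.

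In arginine and polyamine metabolism a few genes rose and the rest were not called: 4 of 19 were higher and 0 lower (median 0.08), but 3 and 3 when libraries were scaled to total counts. NATA1 led, and ARGAH2, an arginase gene, had 354, 255 and 237 CPM in JA WT, against 38.6, 39.5 and 43.1 CPM in mock WT (2.8 ± 0.14). ADC2, an arginine decarboxylase gene, rose by 0.93 ± 0.12, and SPDS1, a spermidine synthase gene that overlaps another gene, by 0.28 ± 0.06; the rise of SPDS1 was not called without JA WT replicate 1 or 3. In ascorbate and tocopherol metabolism 6 of 23 rose and 1 fell (median 0.13). Total-count scaling gave 5 and 2, and leaving out mock WT replicate 2 gave 6 and 2. MDAR3, which regenerates ascorbate, had 578, 578 and 511 CPM in JA WT, against 31.8, 51.5 and 30.4 CPM in mock WT (3.87 ± 0.18), and VTC5, of ascorbate synthesis, rose by 1.12 ± 0.08. DHAR1 rose by 1.34 ± 0.18 and has a copy 95.3% identical over an aligned stretch, and MDAR4, a peroxisomal form, fell (−0.3 ± 0.06).

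Volatile and phenylpropanoid lists held mostly rises among their calls. Of 14 terpene and hydroperoxide lyase genes 5 passed the filter, and 4 rose and 0 fell (8.62% and 7.07% of all genes tested). A gene near 0 in mock WT could pass only through JA WT, as TPS04 did with 104 counts against 3. The share of rises among the members tested is therefore not a measure of the list. The monoterpene synthase TPS27 had 28.7, 11.6 and 1.59 CPM in JA WT, against 0.586, 0.867 and 0.641 CPM in mock WT (4.29 ± 0.83), a wide spread within JA WT with replicate 3 lowest, and it has an identical copy. HPL1, the hydroperoxide lyase of leaf volatiles, rose by 3.77 ± 0.32, and TPS13, which has a copy 91.9% identical over an aligned stretch, by 3.35 ± 0.29. Of 19 phenylpropanoid genes 12 rose and 0 fell (median 0.41). Total-count scaling gave 9 and 2, and leaving out mock WT replicate 2 gave 14 and 1. Its largest rises were of DTX18 and ACT. DTX18, a transporter of hydroxycinnamic acid amides, had 35.3, 39.5 and 52.9 CPM in JA WT, against 2.39, 2.85 and 2.04 CPM in mock WT (4.13 ± 0.17; it overlaps another gene), and ACT, the agmatine coumaroyltransferase, had 61.1, 66.3 and 72.7 CPM in JA WT, against 10.3, 9.89 and 8.75 CPM in mock WT (2.79 ± 0.18). The entry enzyme PAL1 rose by 0.45 ± 0.10, but not past the threshold without JA WT replicate 1 or 2. Of the 5 camalexin genes GGP1 rose (1.24 ± 0.11) and the others were not called.

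Enzyme families that modify small molecules held large rises and falls. Of 15 SABATH methyltransferases tested out of 24, 7 rose and 1 fell, but 4 and 2 under total-count scaling and 8 and 1 without mock WT replicate 2. Over all genes tested 8.62% were higher and 7.07% lower. FAMT and AT3G44870, nearly silent in mock WT, could pass the filter only through JA WT. Beside FAMT and AT3G44870, AT5G38100 rose by 2.82 ± 0.18. Of 35 glutathione S-transferases 14 rose and 4 fell (16 and 4 without mock WT replicate 2), with GSTU26 at 189, 220.3 and 202 CPM in JA WT, against 22.5, 27.4 and 16.7 CPM in mock WT (3.2 ± 0.15). GSTU4, GSTU6 and GSTF12, of which GSTF12 acts in anthocyanin transport, rose by 3.45 ± 0.24, 2.85 ± 0.11 and 2.89 ± 0.24. Of 54 UDP-glycosyltransferases 16 rose and 6 fell, or 15 and 4 without mock WT replicate 2. UGT76E1 rose by 4.54 ± 0.54, or 5.61 without that library.

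Of 167 genes matched as cytochromes P450 by symbols that start with CYP, 45 rose and 26 fell (8.62% and 7.07% of all genes tested). The counts were 38 and 37 under total-count scaling and 44 and 22 without mock WT replicate 2. The match took in 4 cyclophilins, CYP5, CYP38, CYP59 and CYP71, none of them called. CYP710A4, a sterol desaturase gene, had 33.7, 29 and 24.6 CPM in JA WT, against 1.17, 1.23 and 0.377 CPM in mock WT (4.97 ± 0.29). CYP705A30 had 158, 149 and 122 CPM in JA WT, against 4.94, 11.2 and 6.33 CPM in mock WT (4.24 ± 0.23), and CYP81D1 rose by 3.69 ± 0.15. CYP51G2, listed beside the sterol demethylase CYP51G1, rose by 3.57 ± 0.30. CYP71A20 rose by 4.57 ± 0.15 and has a copy 92.1% identical over an aligned stretch. CYP82C4, which acts in the synthesis of the iron-mobilizing coumarin sideretin, fell by 1.53 and CYP702A5 by 1.81.

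Transcription factor families differed in their share of calls, which over all genes tested was 8.62% higher and 7.07% lower. Of 21 wound and stress ERF factors 13 rose and 1 fell (median 0.94), and 11 rose and 1 fell without mock WT replicate 2. RAP2.6 had 109.9, 109 and 109 CPM in JA WT, against 14.9, 19.1 and 18.5 CPM in mock WT (2.64 ± 0.10, edgeR adjusted p = 2.29e-08), and ERF1A, ERF13 and ORA59 rose by 3.12 ± 0.39, 2.82 ± 0.32 and 1.4 ± 0.09. TINY, an AP2/ERF factor, had 8.27, 8.29 and 8.24 CPM in JA WT, against 20.6, 21.3 and 18.7 CPM in mock WT (−1.29 ± 0.09). Of 55 WRKY factors 9 rose and 6 fell, 8 and 8 under total-count scaling and 11 and 4 without mock WT replicate 2. WRKY40 had 46.8, 37.7 and 44.7 CPM in JA WT, against 3.98, 3.21 and 3.02 CPM in mock WT (3.67 ± 0.14), and its relatives went apart: WRKY18 rose by 1.17 ± 0.11, while WRKY60 had 4.24, 4.02 and 3.63 CPM in JA WT, against 11.5, 14.6 and 10.1 CPM in mock WT (−1.61 ± 0.14).

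Of 88 MYB factors 13 rose and 9 fell, but 12 and 17 under total-count scaling and 14 and 6 without mock WT replicate 2. MYB14 rose by 1.83 ± 0.18 and MYB63 by 1.62 ± 0.16, while MYB49 and MYB19 fell by 1.75 and 2.45. Of 55 NAC factors 5 rose and 7 fell, 5 and 11 under total-count scaling and 6 and 6 without mock WT replicate 2, so the share that rose was near that of all genes tested. NAC019 had 7.24, 4.95 and 6.02 CPM in JA WT, against 1.09, 1.08 and 0.528 CPM in mock WT (2.75 ± 0.26), and NAC003 had 3.56, 3.33 and 3.22 CPM in JA WT, against 6.7, 8.78 and 9.65 CPM in mock WT (−1.32 ± 0.15). Among 11 genes of jasmonate feedback and transport 5 rose and 1 fell, of which 4 and 0 were also called without mock WT replicate 2, and 3 rose and 2 fell under total-count scaling. JAM1 (BHLH17), a bHLH repressor of the response, had 45.5, 44.2 and 41.1 CPM in JA WT, against 16.3, 12.3 and 14.7 CPM in mock WT (1.6 ± 0.10), and GTR1, a glucosinolate and jasmonate transporter gene that overlaps another gene, rose by 1.21 ± 0.08. JAV1, a VQ-motif repressor, rose by 1.08 ± 0.16.

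The nitrate and iron lists held calls in both directions. Of 26 nitrate and ammonium genes 4 rose and 6 fell (8.62% and 7.07% of all genes tested). The counts were 2 and 12 under total-count scaling and 3 and 6 without mock WT replicate 2. Root-to-shoot nitrate carriers went opposite ways. NPF7.3, which loads nitrate into the xylem, had 39.1, 67.3 and 53.1 CPM in JA WT, against 116, 113 and 166 CPM in mock WT (−1.31 ± 0.18). NPF7.2, which removes it from the xylem, had 94.6, 72.7 and 71 CPM in JA WT, against 7.2, 14.5 and 11.6 CPM in mock WT (2.83 ± 0.20). Both overlap another gene. The ammonium transporter gene AMT1;3 and the nitrate-response factor TGA1 fell by 0.83 and 0.88, and the nitrate reductases NIA1 (−0.04 ± 0.16) and NIA2 (0.09 ± 0.11) were not called.

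Of 28 iron genes 12 fell and 4 rose, with a median of −0.28 (7.07% and 8.62% of all genes tested). Without mock WT replicate 2, 10 fell and 3 rose, and 13 fell and 1 rose under total-count scaling. FIT, the bHLH factor that controls root iron uptake, had 11.7, 12.9 and 12.4 CPM in JA WT, against 27.8, 23.4 and 26.1 CPM in mock WT (−1.06 ± 0.10), and the transporter gene IRT1 had 53.6, 53.9 and 38.4 CPM in JA WT, against 154, 137 and 179 CPM in mock WT (−1.69 ± 0.16). BHLH38, a partner of FIT that overlaps another gene, had 0.429, 0.245 and 0.277 CPM in JA WT, against 4.02, 2.42 and 1.66 CPM in mock WT (−3.06 ± 0.45), and BHLH39 fell by 1.26. ABCG37, a coumarin exporter, rose by 0.56 ± 0.06. The ferritin FER1 had 584, 1180.1 and 1393 CPM in JA WT, against 228, 526 and 996 CPM in mock WT (0.85 ± 0.43, edgeR adjusted p = 0.214), so its groups overlapped and it was not called. Of 18 phosphate genes 5 fell and 0 rose (median −0.46), or 6 and 1 without mock WT replicate 2, and PHO1;H1, a phosphate exporter, had 12, 10.6 and 10.3 CPM in JA WT, against 29.2, 23.5 and 27.4 CPM in mock WT (−1.28 ± 0.10).

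In the cytokinin list 11 of 26 genes fell and 1 rose (median −0.58), or 11 and 2 without mock WT replicate 2. Among all genes tested 7.07% were lower and 8.62% higher. IPT5, a cytokinin synthesis gene, had 7.59, 7.55 and 6.75 CPM in JA WT, against 18.9, 22.2 and 19.4 CPM in mock WT (−1.47 ± 0.09, edgeR adjusted p = 8.59e-07), and CYP735A2, which makes trans-zeatin forms, had 10, 7.85 and 7.27 CPM in JA WT, against 20.8, 27 and 21.9 CPM in mock WT (−1.48 ± 0.13). The response regulator genes ARR5 and ARR7, which cytokinin induces, fell by 1.16 and 0.59. LOG8 was the 1 that rose (0.43 ± 0.08). Of 23 gibberellin genes 3 rose and 7 fell, against the same shares of all genes tested. Log2 fold changes over this list ran from −6.87 to 3.44. RGL3, a DELLA repressor gene, had 6.6, 8.58 and 8.89 CPM in JA WT, against 2.18, 3.07 and 1.81 CPM in mock WT (1.77 ± 0.21). The synthesis genes GA3OX1, GA3OX2 and GA20OX2 fell by 0.83, 2.48 and 1.02, and GASA6 had 14.6, 28 and 43.1 CPM in JA WT, against 90.1, 101 and 148 CPM in mock WT (−1.98 ± 0.32; it overlaps another gene).

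Of 20 Aux/IAA genes none was called with edgeR (3 at an unadjusted p under 0.05, and 0 with DESeq2 or limma-voom), though 1 was lower without mock WT replicate 2 and 3 under total-count scaling, and of 15 SAUR genes 1 rose. In auxin synthesis, transport and conjugation 2 of 22 rose and 7 fell, or 3 and 8 without mock WT replicate 2. ASA1, of tryptophan synthesis, rose by 1.69 ± 0.06, DAO1, which oxidizes auxin, by 1.4 ± 0.15, and GH3.17 and PIN5 fell by 1.01 and 1.67. Of 23 ethylene genes 5 rose and 3 fell (8.62% and 7.07% of all genes tested), but 5 and 1 without mock WT replicate 2. Of 16 brassinosteroid genes 1 was called, DET2 (1.04 ± 0.07), which is a smaller share than the 15.7% of all genes tested. ASA1 and DET2 overlap other genes.

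Expansin and xyloglucan endotransglucosylase lists held mostly falls among their calls, with most members not called. Of 17 expansins 6 fell and 0 rose (median −0.24), where 7.07% of all genes tested were lower and 8.62% higher. EXPA11 had 15, 16.9 and 21.5 CPM in JA WT, against 52.8, 35.3 and 41.7 CPM in mock WT (−1.27 ± 0.17), and EXPA1 fell by 0.8, but not past the threshold without JA WT replicate 2. Of 25 xyloglucan endotransglucosylases 10 fell and 2 rose (median −0.39). XTH19 had 13.8, 12.8 and 10.4 CPM in JA WT, against 44.6, 36.1 and 41.3 CPM in mock WT (−1.73 ± 0.11), and XTH17 fell by 1, while XTH20 rose by 0.9 ± 0.15. Without mock WT replicate 2 the falls numbered 8 and 12, and the rises 1 and 3, in expansins and xyloglucan endotransglucosylases.

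Chlorophyll and photosynthesis genes were largely not called at 3 h. Of 42 genes matched as nuclear photosystem and antenna genes 1 was called, PSAT, a phosphoserine aminotransferase that the name match took in and that is no photosystem gene (1.38 ± 0.08). Of 18 chlorophyll synthesis genes none was called with edgeR, DESeq2 or limma-voom (1 at an unadjusted edgeR p under 0.05). Without mock WT replicate 2, 1 gene of each of these lists was also lower. In chlorophyll breakdown and senescence 5 of 18 rose and 0 fell, or 4 and 0 under total-count scaling. ACD1, among the 5, overlaps AT3G44870, which rose by 7.52, so its counts are uncertain. CLH1, a chlorophyllase gene, had 363, 324 and 277 CPM in JA WT, against 15.9, 12.2 and 12.7 CPM in mock WT (4.56 ± 0.14, edgeR adjusted p = 5.66e-09), and ASN1, an asparagine synthetase gene that overlaps another gene, had 31.8, 25 and 27 CPM in JA WT, against 1.59, 1.26 and 1.39 CPM in mock WT (4.3 ± 0.16). The regulators of breakdown NYE1 (−0.27 ± 0.17) and NYC1 (0.01 ± 0.11) were not called. None of 20 replication and cell division genes was called with edgeR, DESeq2 or limma-voom (3 at an unadjusted edgeR p under 0.05). Under total-count scaling 2 of them were lower. The list was labelled replication and core histones but held no histone gene, so it says nothing about histones. None of 18 trichome patterning genes was called with edgeR (6 at an unadjusted p under 0.05, 1 called with DESeq2 and 0 with limma-voom), though 3 were lower under total-count scaling and 1 without mock WT replicate 2.

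Without mock WT replicate 2, 277 of the higher and 356 of the lower calls were lost. Of the 1809 higher calls 1532 were kept without it, against 1513 without mock WT replicate 1 and 1527 without replicate 3. Of the 1483 lower calls 1127 were kept without it, against 1276 without replicate 1 and 1350 without replicate 3. In all 9 fits that left out 1 library, 1122 higher and 816 lower calls were kept. The genes described here are those whose log2 fold change moved most. LTP4, a lipid transfer protein gene, had 0.171, 0.049 and 0.0346 CPM in JA WT, against 0.0419, 210.5 and 0.0754 CPM in mock WT, a log2 fold change of −9.65 ± 2.77 that turned to 0.44 without that library. LTP3, its neighbour, had 1.03, 0.981 and 1.35 CPM in JA WT, against 1.55, 192 and 1.96 CPM in mock WT (−5.84 ± 1.66, and −0.63 without it). Both calls were lost without mock WT replicate 2, without any 1 JA WT library and without any 1 mock lhp1 library. The kinase gene MAPKKK21 had 0.771, 1.08 and 0.9 CPM in JA WT, against 0, 0.253 and 0 CPM in mock WT (3.28 ± 0.70), with all of its mock WT counts in replicate 2. AT3G19550, annotated as glutamate racemase, averaged 2.68 ± 0.528 CPM in JA WT, against 0.546 ± 0.841 CPM in mock WT (SD, n = 3 each) (2.24 ± 0.69, and 5.38 without mock WT replicate 2); its call was lost without any 1 other library, and it overlaps another gene.

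**Figure D5:**
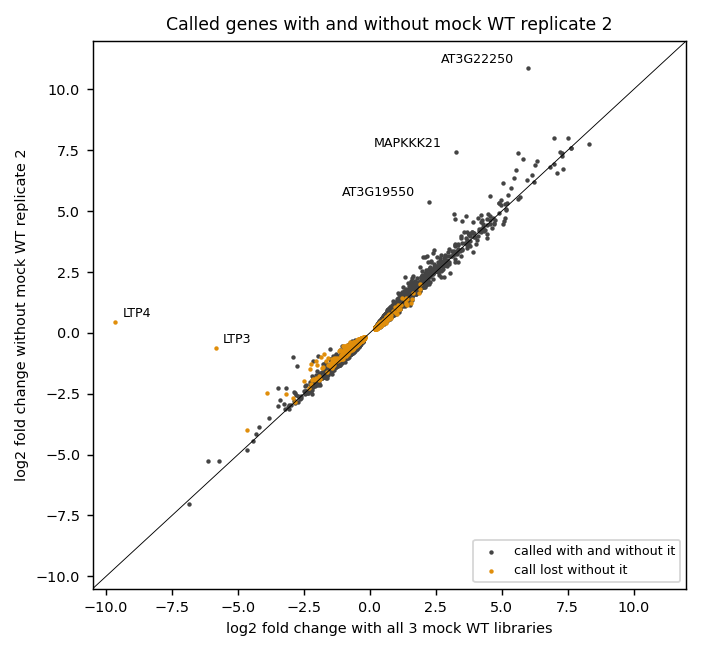
Log2 fold change of JA WT over mock WT without mock WT replicate 2 (vertical axis) against that with all libraries (horizontal axis), 1 point per called gene. Dark points are called with and without that library and orange points lose the call; LTP4 (−9.65 with, 0.44 without) and LTP3 (−5.84 with, −0.63 without) lie farthest from equal values among the lower genes named.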

How the data were processed

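Polyadenylated RNA was measured in 3 JA WT, 3 mock WT and 3 mock lhp1 libraries. The authors deposited whole-number read counts per gene, not normalized, and TopHat, HTSeq, edgeR and the build TAIR10 are named in the submitters' processing notes. Strand use and the treatment of reads with several matches are not given in the sources used here. Another 3 per-library columns in the table fit no label and were not used. RefSeq TAIR10.1 names matched 32835 of 33602 genes, and promoters were read from that genome.

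A model with group means was fitted to all 9 libraries (edgeR 4.0.16 in R 4.3.3). It used filterByExpr, TMM factors and the two-sided quasi-likelihood test, with p adjusted after Benjamini and Hochberg and called below 0.05. The biological coefficient of variation was 0.106. Chi-square per degree of freedom between replicates was 5.70 to 11.9 in JA WT and 20.8 to 37.9 in mock WT, over genes with at least 20 counts in the pair. In mock WT it was 37.9 for replicates 1 and 2, 26.2 for 1 and 3 and 20.8 for 2 and 3. By this measure replicates 1 and 3 differed more than 2 and 3. Standard errors are approximate: the size of the log2 fold change over the square root of F. The design text calls the libraries biological replicates, and p-values measure the spread between these libraries.

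Named genes were the 15 largest rises and 15 largest falls and the 10 largest gains and 10 largest losses in CPM (called with and without mock WT replicate 2, no overlap between groups, at least 5 CPM in the higher group), up to 5 called members per list and direction, any listed member given with its value, the 5 calls that moved most without mock WT replicate 2, and the 8 genes with most JA WT counts among those near 0 in mock WT. AT3G28220, UF3GT and the triterpene, squalene and neighbour sets were chosen after values were seen. The members and lists were chosen with earlier results of these data known. Alternatives were other scalings and filters, DESeq2 1.42.0, limma-voom (limma 3.58.1), fewer libraries, a replicate block and each library left out. The fit was tested on simulated data. Figures used matplotlib 3.10.9 in Python 3.11.15.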

Additional observations from a re-analysis of the deposited data

How the results depend on the processing

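No gene was called in opposite directions under any alternative run. Some alternatives kept every JA WT and mock WT library. Over these the 1809 higher genes numbered 1217 to 1880 and the 1483 lower genes 934 to 3034. The lower count was 3034 with total-count scaling, 934 with the JA WT and mock WT libraries alone and 745 with those without mock WT replicate 2; the cause was not tested. Without each library in turn the counts were 1290 to 1843 higher and 1042 to 1998 lower. DESeq2 gave 1822 and 1713, limma-voom 1873 and 1394, and no low-count filter 1774 and 1517. With the replicate number as a block the counts were 1880 and 1545, of which 1725 and 1388 were shared with the fit without it. The numbers share no stated source: deviations of same-numbered JA WT and mock WT libraries correlated at 0.215, 0.0313 and 0.133, and JA WT replicate 2 correlated best with mock WT replicate 3 (0.0852).

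The 54 genes named for their fold, their CPM gained or lost or their move without mock WT replicate 2 gave 916 values, of which 861 kept their call, 54 lost it and 1 lost it with a changed sign, LTP4 without mock WT replicate 2 (0.44; over fits without each library in turn, the log2 fold change of LTP4 was −10.6 to 0.44). Genes named for their fold or CPM had to be called without mock WT replicate 2, so their outcome in that fit was fixed in advance. They also had to show no overlap between groups, so the calls kept describe chosen genes and not all called genes. The 14 genes near 0 in mock WT numbered 48 with at most 10 mock WT counts, 3 with at least 100 JA WT counts and 9 to 32 without each library in turn. The 21 genes near 0 in JA WT numbered 73 with at most 10 JA WT counts, 5 with at least 100 mock WT counts (both limits added after the data were seen) and 1 to 35 without each library in turn. Among genes at least 2-fold changed, CACGTG was in 15.2% and CACATG in 20% of the higher promoters, and AAAATATCT in 1.93% of the lower. Groups of 3 libraries were not tested for single outlying values, and genes near 0 counts limit what a fold can show.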
